A study of Mus musculus with 8 samples.

Results

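The 10 genes described here belong to cortical inhibitory neurons. They are the neuropeptide precursors Sst, Npy, Vip, Cck, Tac1, Tac2, Crh, Penk and Pthlh, and the gene for the binding protein Crhbp. They were taken by symbol from a set of names that was drawn up with earlier results of these data known, and all 10 were found among the 55450 genes of the count tables. All 10 also passed the filter on low counts, after which 16448 genes were tested.

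The material was nuclear RNA of fluorescent nuclei sorted from single frozen cortices of juvenile mice. Every animal carried a Cre driver for GABAergic neurons and a Cre-dependent reporter that makes nuclei fluorescent, and the labels do not name the promoter of the driver. Controls were Thra+/+, and mutants were Thra+/AMI, that is, 1 normal and 1 mutant allele of the gene for thyroid hormone receptor alpha. The mutant allele becomes active where Cre acts and encodes a dominant-negative receptor. By this design the mutant receptor should be present in all GABAergic classes that the driver reaches, which was not measured here. The nuclei of those classes were sorted together.

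The tables labelled mutant 7 and mutant 10 held the same count in all 55220 genes compared, and with a difference below sampling noise they were counted as 1 sample. Which of these animals gave it is not known. This left 4 controls (1 to 4) and 3 mutants (6, 7 and 8), with total counts of 10747169 to 13804734. The GABAergic label held: 7 of 8 general GABAergic markers were tested, their summed level was 5189 to 6522 CPM (counts scaled to a common library size with TMM factors) in controls and 5803 to 7067 CPM in mutants, and Dlx1 was listed at 0 in every library. Counts per gene do not separate the normal from the mutant Thra allele, so they do not check the genotype. The members rested on 80 to 6545 reads per library.

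Cortical inhibitory neurons release GABA together with peptides, and the peptide divides them into classes. Somatostatin neurons make Sst and, in part, Npy and Crhbp, and target the dendrites of pyramidal cells. VIP neurons make Vip and, in subsets, Tac2, Crh, Cck and Penk, and mainly inhibit other inhibitory neurons. Tac1 and Pthlh are found in parvalbumin neurons among others, and Npy also marks neurogliaform cells. Peptide precursors are cut by convertases, stored in dense-core vesicles and act on G protein-coupled receptors, while CRH-binding protein captures CRH outside the cell. Thyroid hormone receptor alpha is a nuclear receptor that turns genes on or off according to whether hormone is bound.

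Of the members, 6 differed between the genotypes, and they did so in both directions. Sst, Crhbp, Tac2 and Cck were higher in mutants, and Npy and Crh were lower (edgeR quasi-likelihood test, adjusted p under 0.05 over all tested genes). Vip, Tac1, Penk and Pthlh did not pass. Calls were thus made for 6 of 10 members, where 9.42% of all tested genes were called. Higher calls numbered 4, against 4.63% of tested genes, and lower calls numbered 2, against 4.78%. The control and mutant ranges did not overlap in the same 6 members, which was the case for 22.0% of tested genes. The median log2 fold change (mutant over control) of the 10 members was 0.20, beside -0.01 over all tested genes. Without mutant 6, 7 or 8 the number of members called fell to 3 in each case, and these always included Crhbp and Tac2. In those fits 4.55%, 4.35% and 4.86% of tested genes were called. In bulk RNA of sorted nuclei, more cells of a type and more RNA per cell cannot be told apart, and this holds for every difference below.

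**Figure D1:**
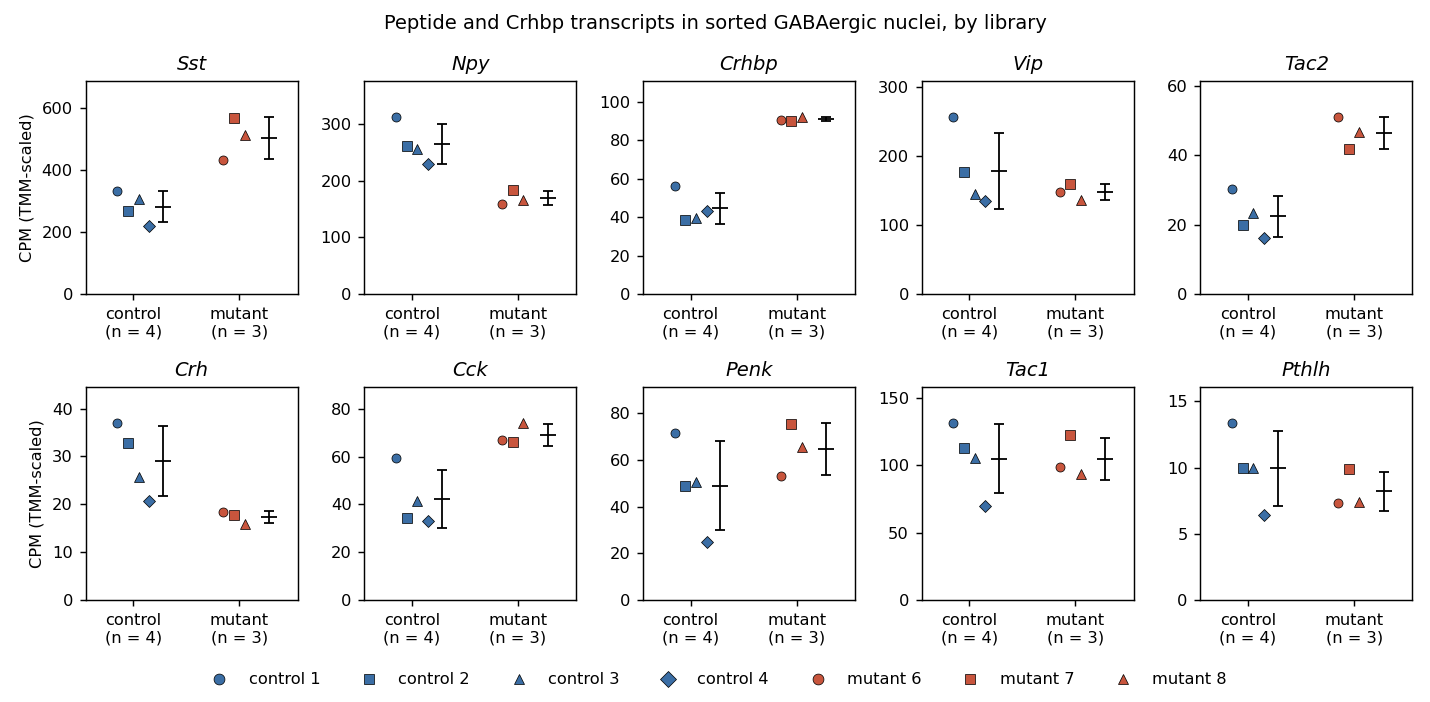
TMM-scaled CPM (vertical axes from 0) of the 10 members in 4 control (blue) and 3 mutant (red) libraries, 1 symbol per library, with mean and SD in black. The mutant points lie above every control point for Sst, Crhbp, Tac2 and Cck and below every control point for Npy and Crh, and control 1 is the highest control in all 10 panels.

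Somatostatin, an inhibitory peptide that names a main class of cortical inhibitory neurons, had the highest mean CPM of the members in both groups. Sst (ENSMUSG00000004366.4, GRCm38 chromosome 16, 23889573 to 23890958, minus strand) measured 331.5, 265.8, 307.2 and 218.8 CPM in controls 1 to 4. In mutants 6, 7 and 8 it measured 429.7, 565.8 and 511.8 CPM. Every mutant thus lay above every control, with mutant 7 the highest. The means were 280.8 ± 49.4 CPM (SD, n = 4) and 502.4 ± 68.5 CPM (SD, n = 3). The rise was 1.79-fold (log2 fold change 0.84, SE 0.16, edgeR adjusted p = 0.00682). The call was lost without mutant 7, where the log2 fold change was 0.75 and the adjusted p was 0.0551. It held in the other 6 fits without 1 library and in the 9 other alternatives, where adjusted p-values ran from 3.49e-06 to 0.0130.

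Crhbp, the secreted protein that binds CRH and is made by many somatostatin neurons, had the smallest adjusted p of the members. Crhbp (ENSMUSG00000021680.8, chromosome 13, 95431371 to 95444924, minus strand) was at 56.4, 38.7, 39.6 and 43.4 CPM in controls 1 to 4. In the mutants it was at 90.6, 90.2 and 92.3 CPM. The 3 mutants were nearly equal, and all were well above control 1, the highest control. Levels went from 44.5 ± 8.18 CPM (SD, n = 4) to 91.0 ± 1.12 CPM (SD, n = 3), a 2.04-fold rise (log2 fold change 1.03, SE 0.13, edgeR adjusted p = 0.000494). Crhbp was called in each of the 7 fits without 1 library and in the 9 other alternatives.

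Neuropeptide Y went the other way. Npy (ENSMUSG00000029819.6, chromosome 6, 49822710 to 49829507, plus strand), a peptide of a subset of somatostatin neurons and of neurogliaform cells, was at 313.3, 261.4, 255.6 and 229.0 CPM in the controls. The mutants held 158.8, 183.8 and 166.2 CPM, all under the lowest control. From 264.8 ± 35.3 CPM (SD, n = 4) to 169.6 ± 12.8 CPM (SD, n = 3), Npy fell to 0.640 of the control level (log2 fold change -0.64, SE 0.13, edgeR adjusted p = 0.00932). The call was lost without mutant 6 (log2 fold change -0.60, adjusted p = 0.0688) and without mutant 8 (-0.62, adjusted p = 0.0637), with adjusted p-values from 1.83e-05 to 0.0251 over the 9 alternatives that did not leave out a single library. Of 5 listed markers of LAMP5 neurogliaform neurons, 1 was called lower (Cplx3, -1.39) and 1 higher (Sv2c, 0.43), where 9.42% of all tested genes were called. Their median log2 fold change was -0.46, and the part of this class in the fall of Npy was not tested.

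Because Sst and Npy moved apart, their ratio within a library changed more than either gene. Reads of Npy per read of Sst numbered 0.945, 0.984, 0.832 and 1.05 for controls 1 to 4, but 0.370, 0.325 and 0.325 for mutants 6, 7 and 8. In controls both transcripts were counted about equally often, whereas in mutants Sst led by a wide margin. This ratio was chosen after its values were seen and is given as a description with no test. For Crhbp against Sst, a comparison listed in the design, the ratios overlapped between the groups: 0.170, 0.146, 0.129 and 0.198 in controls and 0.211, 0.159 and 0.180 in mutants. The log2 ratio was -2.66 ± 0.27 (SD, n = 4) in controls and -2.46 ± 0.20 (SD, n = 3) in mutants, a difference of 0.20 that did not pass (two-sided exact permutation test, p = 0.371, adjusted over the 3 ratios tested 0.371). Crhbp and Sst thus rose without a detectable shift between them at this number of libraries.

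Most listed companions of the somatostatin class had positive log2 fold changes, some of them small, and a minority were called. Of 8 listed companions, all tested, 7 had a positive log2 fold change and 1 a negative one, and the median was 0.41. Calls numbered 3, with 2 higher and 1 lower, where 9.42% of all tested genes were called. Called higher were Calb1, a calcium-binding protein (log2 fold change 1.62), and Myh8, a myosin heavy chain (2.07), and Hpse, the heparan sulfate-cutting enzyme heparanase, was lower (-1.09). These 3 are named because their values were seen. Chodl and Nos1, which mark the somatostatin neurons with high Npy and long-range axons, were at log2 fold changes of 0.11 (adjusted p = 0.891) and 0.04 (adjusted p = 0.926) in edgeR's test. The summed level of the 8 companions was 548.9 to 836.9 CPM in controls and 980.5 to 1151 CPM in mutants, and most of that difference lay in Calb1 (means of 80.2 and 246.4 CPM) and the glutamate receptor subunit gene Grin3a (446.6 and 605.4 CPM), which was not called.

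VIP neurons were examined through Vip itself and the peptides of their subsets. Vip (ENSMUSG00000019772.5, chromosome 10, 5639218 to 5647617, plus strand), a peptide that raises cyclic AMP in its target cells, was at 256.8, 176.6, 144.3 and 134.6 CPM in controls 1 to 4. Mutants 6, 7 and 8 had 147.8, 158.8 and 136.3 CPM and fell inside the control range. Control 1 was far above the other controls, and the mean of 178.1 ± 55.5 CPM (SD, n = 4) moved with it. Against 147.6 ± 11.3 CPM (SD, n = 3) in mutants, the log2 fold change was -0.27 with a 95% interval from -0.69 to 0.15 (edgeR adjusted p = 0.469). Without control 1 the log2 fold change was -0.04.

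Tac2 encodes neurokinin B, a tachykinin of some VIP neurons, and rose by about as much as Crhbp. Tac2 (ENSMUSG00000025400.11, chromosome 10, 127724478 to 127731768, plus strand) was at 30.2, 19.95, 23.4 and 16.3 CPM in the controls. It was at 51.0, 41.7 and 46.8 CPM in mutants 6, 7 and 8, so the groups were clearly apart. The rise from 22.5 ± 5.93 CPM (SD, n = 4) to 46.5 ± 4.67 CPM (SD, n = 3) was 2.07-fold (log2 fold change 1.05, SE 0.18, edgeR adjusted p = 0.00343). As for Crhbp, the call held in each of the 7 fits without 1 library and in the 9 other alternatives.

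Crh, the stress-related releasing hormone that in cortex is made by subsets of inhibitory neurons, was lower in mutants. Crh (ENSMUSG00000049796.4, chromosome 3, 19693401 to 19695396, minus strand) was at 37.0, 32.9, 25.7 and 20.7 CPM in controls 1 to 4. It was at 18.5, 17.8 and 16.0 CPM in the mutants, just under control 4. From 29.1 ± 7.29 CPM (SD, n = 4) to 17.4 ± 1.30 CPM (SD, n = 3), Crh fell to 0.599 of the control level (log2 fold change -0.74, SE 0.19, edgeR adjusted p = 0.0298). The call was lost with library totals in place of TMM (log2 fold change -0.72, adjusted p = 0.0613). It was lost as well without control 2 (-0.68) and without mutant 6 (-0.79), mutant 7 (-0.75) or mutant 8 (-0.67), with adjusted p-values from 0.0914 to 0.143 in these 4 fits. The releasing hormone and its binding protein therefore moved in opposite directions, and the rise of Crhbp kept its call in more of the alternatives.

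Cck, the precursor of cholecystokinin, marks basket cells and part of the VIP neurons and is also strongly expressed in pyramidal neurons. Cck (ENSMUSG00000032532.7, chromosome 9, 121489824 to 121495694, minus strand) was at 59.5, 34.5, 41.3 and 33.3 CPM in controls 1 to 4. The mutants had 66.7, 65.9 and 74.1 CPM, all higher, with control 1 close to them. Means were 42.1 ± 12.1 CPM (SD, n = 4) and 68.9 ± 4.53 CPM (SD, n = 3), a 1.64-fold rise (log2 fold change 0.71, SE 0.18, edgeR adjusted p = 0.0255). Single libraries decided this call: it was lost without control 2 (0.62), control 3 (0.70), mutant 6 (0.73), mutant 7 (0.75) or mutant 8 (0.66), with adjusted p-values from 0.0703 to 0.120, and without control 4 and mutant 8 together (0.56, adjusted p = 0.0823).

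Markers of glutamatergic neurons are set beside Cck for that reason. All 11 listed markers were detected and tested, and none was at 0. Their summed level was 414.1 to 526.6 CPM in controls and 294.6 to 372.5 CPM in mutants. Most of that difference was 1 gene, Slc30a3, a vesicular zinc transporter, with means of 151.1 and 70.3 CPM and the only call of the list (log2 fold change -1.10). Of all tested genes, 9.42% were called. The other 10 markers overlapped between the groups, where 22.0% of all tested genes did not overlap. Of the 11 markers, 5 had a positive log2 fold change, and the median was -0.10. Slc17a7, the vesicular glutamate transporter of cortical pyramidal neurons, spanned 46.9 to 94.5 CPM (controls) and 47.7 to 84.2 CPM (mutants). Among astrocyte markers, summing to 234.5 to 308.0 CPM in controls and 183.3 to 206.7 CPM in mutants, 1 of 5 tested was called, Slc4a4 (-0.54), against the same 9.42%. Slc4a4, with means of 214.9 and 148.3 CPM, made up most of that difference, the other tested astrocyte markers overlapped between the groups, and Gfap was listed at 0. The part of other cells in the members' changes was not tested.

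The ratio of Tac2 to Vip, both peptides of VIP neurons, differed between the genotypes. Reads of Tac2 per read of Vip numbered 0.118, 0.113, 0.162 and 0.121 in controls and 0.345, 0.262 and 0.343 in mutants. All mutants were above all controls, and the log2 ratio went from -2.98 ± 0.24 (SD, n = 4) to -1.67 ± 0.23 (SD, n = 3). The difference of 1.31 gave p = 0.0286 (two-sided exact permutation test over 35 splits, the smallest p this design allows, adjusted over the 3 ratios 0.0429). Across classes, reads of Sst per read of Vip numbered 1.29, 1.51, 2.13 and 1.63 in controls and 2.91, 3.56 and 3.75 in mutants. The log2 ratio rose by 1.07, from 0.69 ± 0.30 (SD, n = 4) to 1.76 ± 0.19 (SD, n = 3), with the same exact permutation p = 0.0286 (adjusted 0.0429). Such ratios need no scaling of library sizes. Their genes belong to a set drawn up with earlier results of these data known, so these p-values are not independent support. Leaving out any library makes p under 0.05 impossible here, and the differences then ran from 1.24 to 1.44 for Tac2 to Vip and from 0.97 to 1.21 for Sst to Vip.

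**Figure D2:**
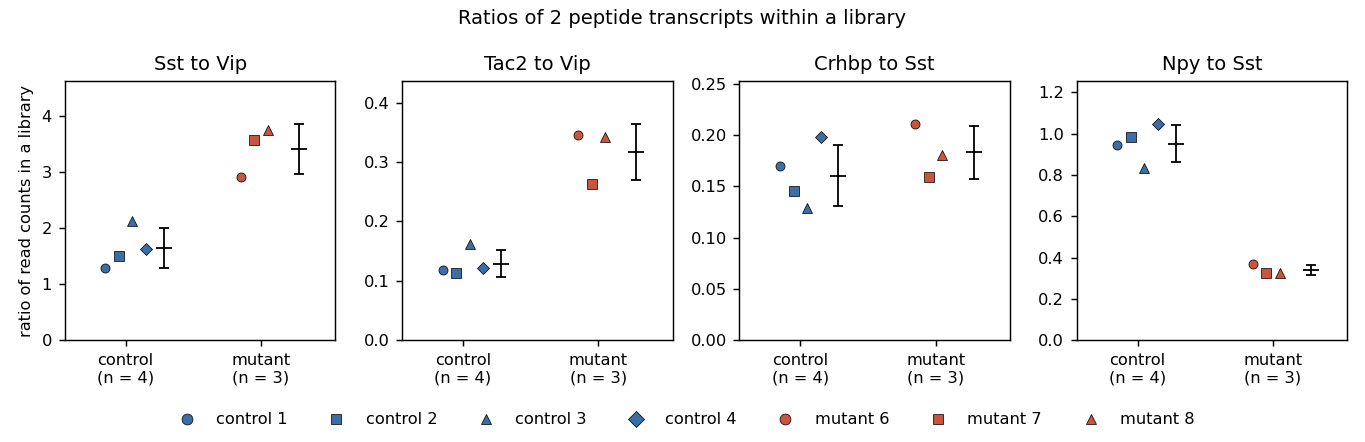
Ratio of the read counts of 2 transcripts within each library (vertical axes from 0), controls in blue and mutants in red, with mean and SD in black. Sst to Vip and Tac2 to Vip were higher in all 3 mutants, Crhbp to Sst overlapped between the groups, and Npy to Sst was 0.832 to 1.05 in controls and 0.325 to 0.370 in mutants.

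Of 8 listed non-peptide companions of the VIP class, 7 were tested, and 5 of these had a positive log2 fold change, with a median of 0.17. Calls numbered 3, with 1 higher and 2 lower, against 9.42% of all tested genes. The transcription factor gene Npas1 was higher (0.65), and the chemokine gene Cxcl14 (-1.88) and the acetylcholine-synthesising enzyme gene Chat (-1.64) were lower. Calb2, calretinin, was at 0.20 (edgeR adjusted p = 0.633). Their summed level was 461.4 to 546 CPM for controls, below the 569.6 to 608.9 CPM of the mutants, and the largest part of that difference was Npas1 (means of 162.8 and 256.4 CPM). Crispld2 was listed at 0 in every library.

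Penk encodes the opioid precursor proenkephalin, found in some VIP neurons and abundant in striatal projection neurons. Penk (ENSMUSG00000045573.9, chromosome 4, 4133531 to 4138819, minus strand) was at 71.2, 48.7, 50.5 and 24.8 CPM in the controls, against 53.0, 75.3 and 65.5 CPM in the mutants. The groups overlapped, with control 4 well under all other libraries. The log2 fold change was 0.40 with a 95% interval from -0.16 to 0.96 (edgeR adjusted p = 0.407). Without controls 1 and 4, the highest and lowest of the controls, it was 0.38 and passed (adjusted p = 0.0341). Of the exons of Penk, 14.3% are shared with the antisense gene A830012C17Rik, so its reads are uncertain to that extent. Markers of striatal projection neurons summed to 423.5 to 890.8 CPM in controls and 580.9 to 781.1 CPM in mutants. Of these, 1 of 7 tested was called, Rgs9 (0.81), against 9.42% of all tested genes, and the dopamine receptor gene Drd2 was at a log2 fold change of -0.03.

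Tac1 encodes substance P and neurokinin A, and its mean was nearly the same in both genotypes. Tac1 (ENSMUSG00000061762.12, chromosome 6, 7554879 to 7565834, plus strand) was at 131.7, 113.1, 105.7 and 70.0 CPM in controls and at 98.7, 122.5 and 93.5 CPM in mutants. The mutants lay within the control range, and the means were 105.1 ± 25.8 CPM (SD, n = 4) and 104.9 ± 15.5 CPM (SD, n = 3). The log2 fold change was -0.0044, with a 95% interval from -0.40 to 0.39 (edgeR adjusted p = 0.992), which leaves room for a change of that size in either direction. Tac1 and Tac2, both tachykinin genes, thus gave different results in the same libraries, although the difference between them was not tested.

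Pthlh, which encodes parathyroid hormone-related protein and is an early marker of parvalbumin neurons, was the least abundant member. Pthlh (ENSMUSG00000048776.8, chromosome 6, 147252101 to 147264183, minus strand) was at 13.4, 9.98, 9.97 and 6.45 CPM in controls and at 7.35, 9.91 and 7.43 CPM in mutants. The ranges overlapped, and the log2 fold change was -0.28 with a 95% interval from -0.80 to 0.25 (edgeR adjusted p = 0.569). Both peptide genes linked to parvalbumin neurons, Tac1 and Pthlh, were therefore without a call, while 6 of 8 listed companions of that class were called, against 9.42% of all tested genes. Of these 5 were lower, among them Pvalb, which was at 41.0 ± 5.91 CPM (SD, n = 4) in controls and 1.81 ± 0.682 CPM (SD, n = 3) in mutants, and 1 was higher. Tac1 and Pthlh are not confined to parvalbumin neurons.

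**Figure D3:**
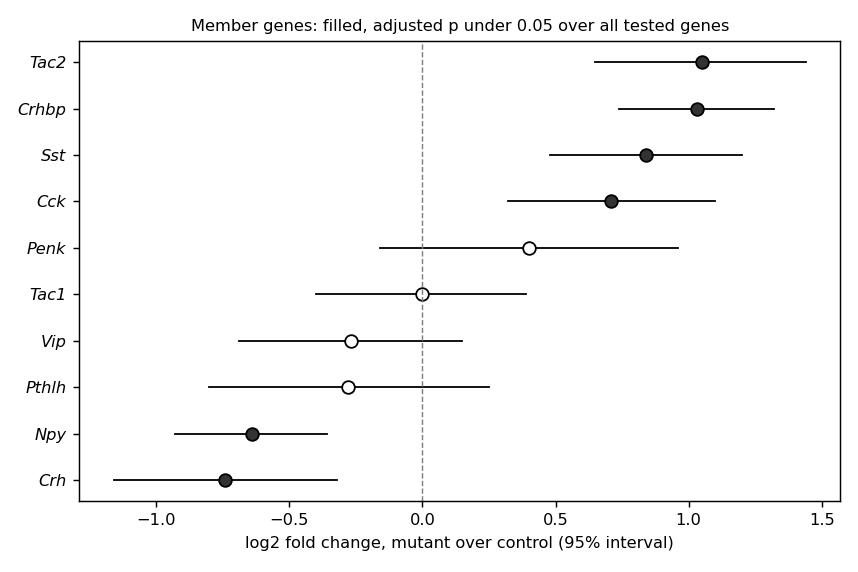
Log2 fold change of mutant over control (horizontal axis) of each member with its 95% interval, filled where the adjusted p over all tested genes was under 0.05. Intervals of Tac2, Crhbp, Sst and Cck lie above 0, those of Npy and Crh below 0, and those of Penk, Tac1, Vip and Pthlh include 0.

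Set against annotated exon length, levels were compared between members. This assumes that reads were counted over exons, which was not tested and is uncertain. The genes Sstr2, Grp and Iapp share 100% of their span but 0% of their exons with antisense genes. They were at 0 in every library, as was Ucn3, which overlaps no other gene. RPKM, read counts divided by annotated exon length and library size, put Npy (467.9 ± 62.3, SD, n = 4) and Sst (389.5 ± 68.6, SD, n = 4) far above the others in controls. Npy exceeded Sst in 4 of 4 controls, although their ranges overlapped, and Vip followed at 52.3 ± 16.3 RPKM (SD, n = 4). The divisor matters here: exon lengths were 566 bp for Npy and 721 bp for Sst, but whole gene spans were 6798 and 1386 bp. Divided by span, Sst would lie above Npy in controls, so the order and ranks given here hold for exon length only. Neighbours from Vip down to Tac2 (Cck, Tac1, Penk, Crhbp, Crh, Tac2) had overlapping ranges, and Pthlh stood alone at 6.15 ± 1.75 RPKM (SD, n = 4). In mutants the order differed: Sst led at 696.9 ± 94.99 RPKM (SD, n = 3), above Npy at 299.6 ± 22.7 RPKM (SD, n = 3) with no overlap. Crhbp went from rank 7 to rank 4 and Vip from rank 3 to rank 5. Cck and Crhbp were neighbours with overlapping ranges in mutants, as were Vip, Penk, Tac2 and Tac1.

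The spread within the groups had a pattern of its own. Control 1 was the highest control for 10 of 10 members, and control 4 was the lowest for 9 of 10, Crhbp being the exception. The coefficient of variation was larger in controls than in mutants for 10 of 10 members, 13.3% to 38.9% against 1.23% to 17.7%. Shares of all tested genes were not computed for these counts, so they are not a trait of the peptides. Whole libraries differed likewise: over all genes compared, chi-square per degree of freedom was 4.55 to 48.6 between controls and 4.23 to 5.71 between mutants. All members are short genes, 1386 to 13554 bp from start to end. For tested genes shorter than 15000 bp, the median log2 difference of control 1 over control 4 was 0.41, against 0.02 for all tested genes. With an offset for genomic length in each library, the same 6 members were called, where 16.7% of tested genes were. Without controls 1 and 4 these 6 and Penk were called, again against 16.7%. Control 4 and mutant 8 also lacked Y-linked reads (4 and 3 reads, against 5094 to 6644 in the other libraries), and without both of them 5 members were called, Cck being lost, against 8.53% of tested genes.

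Under the other settings the members' count ran from 4 to 6. It was 6 without control 1 (12.5% of tested genes called), 4 without control 2 (6.44%), 5 without control 3 (6.25%) and 6 without control 4 (14.5%). It was 6 with DESeq2 size factors in the edgeR fit (9.43%), 5 with library totals (8.52%), 6 with no filter on low counts (6.28%) and 6 with a mean of at least 5 CPM (10.7%). DESeq2 (12.1%) and limma-voom with quality weights (19.1%) also called 6. The share of members called was thus above that of all tested genes under each of these settings. Because the names were drawn up with earlier results of these data known, this is a description and no test of the peptides as a group. Crhbp and Tac2 were called under every one of these settings.

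Promoter sequence is shown for the members in which a searched motif was found, whether or not they were called. RefSeq promoters (GRCm38.p6, 250 bases before to 50 after the RefSeq start) were on hand for 8 of 10 members, all but Crh and Penk, and were searched on both strands. The motifs were the cyclic AMP response element TGACGTCA, its 5-base core TGACG (which the full element contains), the nuclear receptor core AGGTCA, and the thyroid hormone direct repeat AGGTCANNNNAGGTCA (which contains that core). The full response element was found in 1 member, Sst, 48 bases before the start, and is present in 1.79% of 32851 promoters. Its 5-base core was found in 5 of 8, Sst, Vip, Cck, Tac1 and Crhbp, against 20.8% of all promoters. The nuclear receptor core was found in Crhbp alone, 152 bases before the start, against 16.3% of all promoters. The direct repeat was found in 0 of 8, and in 0.0152% of all. Matched letters are in capitals, 5′ to 3′ on the strand of the gene.
Sst, chr16:23890874-23890903, minus strand: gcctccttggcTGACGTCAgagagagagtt
Cck, chr9:121495726-121495752, minus strand: ctgctggactgCGTCAgcactgggtaa
Crhbp, chr13:95444880-95444906, minus strand: agctggaccctCGTCAttgccacgcat
Crhbp, chr13:95444967-95444994, minus strand: gctatgcgttcAGGTCActaggtcctcg
Vip, chr10:5639128-5639154, plus strand: gatcactactgTGACGtctttcgggga
Tac1, chr6:7555007-7555033, plus strand: ctctacaggctCGTCAcgcctgagata
In Cck, Crhbp and Tac1 the core reads CGTCA because it lies on the opposite strand. Tac1 has a further match 197 bases before its start. Members with the core included 3 that rose and 2 without a call, and the members without any match were Tac2, which rose, Npy, which fell, and Pthlh, which was not called. A match describes letters and is not evidence of binding.

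Of 20 other peptide precursors, 10 passed the filter on low counts, and 1 of these was called, a share near the 9.42% of all tested genes. The groups did not overlap in 4 of the 10, against 22.0% of tested genes, and the median log2 fold change was -0.14. The called gene was Cartpt, the precursor of the CART peptide, which went from 16.5 ± 4.98 CPM (SD, n = 4) to 7.23 ± 1.74 CPM (SD, n = 3). Its log2 fold change was -1.20 (SE 0.27, edgeR adjusted p = 0.0144). That call was lost without mutant 6 (-1.05, adjusted p = 0.0893) and without mutant 8 (-1.17, adjusted p = 0.0765). Cort, cortistatin, a relative of somatostatin, was higher in every mutant (29.2 to 34.0 CPM) than in every control (13.0 to 28.3 CPM), but its log2 fold change of 0.54 did not pass (edgeR adjusted p = 0.147). Grp, Ucn3 and Iapp were listed at 0 in every library. For Grp and Iapp, 100% of the span, though 0% of the exons, is shared with an antisense gene, so their 0 cannot be read as absence of the transcript.

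Genes that make and store peptides were called in both directions. All 16 listed genes were tested, with 3 called higher (4.63% of all tested genes), 2 called lower (4.78% of all tested genes) and a median log2 fold change of -0.04. Pcsk1, the prohormone convertase PC1/3, rose: controls held 9.59 to 18.2 CPM and mutants 28.7 to 35.1 CPM (log2 fold change 1.17, SE 0.19, edgeR adjusted p = 0.00238). Its inhibitor gene Pcsk1n (proSAAS) fell: controls held 101.7 to 137.5 CPM and mutants 63.9 to 81.6 CPM (log2 fold change -0.61, edgeR adjusted p = 0.0143). Pcsk1 and its inhibitor therefore moved in opposite directions. Pcsk2, the other main convertase of neurons, was not called (139.6 CPM in controls and 135.5 CPM in mutants on average, log2 fold change -0.04).

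Among granins and vesicle proteins, Vgf rose and Chgb fell. Vgf, a granin-like precursor, was at 73.5 to 85.2 CPM in controls and 119.9 to 179.3 CPM in mutants (log2 fold change 0.98, SE 0.14, edgeR adjusted p = 0.000899). Chgb, chromogranin B, was at 102.8 to 144.8 CPM and 52.6 to 66.2 CPM (log2 fold change -0.94, SE 0.14, edgeR adjusted p = 0.00134). Ptprn, a transmembrane protein of dense-core vesicles, was higher by a smaller margin (0.47, adjusted p = 0.0242), and its call was lost without control 2 (0.46), mutant 6 (0.46), mutant 7 (0.46) or mutant 8 (0.51), as was that of Pcsk1n without mutant 6 (-0.53) or mutant 7 (-0.61). Of the span of Ptprn, 29.2% is shared with an antisense gene. Chga (-0.02), Scg3 (0.14), the carboxypeptidase gene Cpe (-0.17) and the amidating enzyme gene Pam (0.02) were not called.

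Of 19 listed receptors for the members' peptides, 17 were tested. Calls as higher numbered 5, against 4.63% of all tested genes, and calls as lower numbered 0, against 4.78%. The median log2 fold change was 0.21, and 7 of the 17 had a negative log2 fold change. The absence of lower calls depends on the fit: 4 receptors were lower at an unadjusted p under 0.05, 0 were called lower by DESeq2 and 3 by limma-voom, 1 with the length offset, 1 without control 1 and 2 without controls 1 and 4. Crhr2, a receptor of CRH and the urocortins, showed the clearest rise, with 4.95 to 8.72 CPM in controls and 28.7 to 30.6 CPM in mutants (log2 fold change 2.03, SE 0.19, edgeR adjusted p = 4.88e-05). Crhr1, the main CRH receptor of cortex, was at 16.3 and 16.9 CPM on average (0.05, adjusted p = 0.921). Npy2r, a presynaptic receptor of neuropeptide Y, rose, with controls at 9.28 to 15.2 CPM and mutants at 20.8 to 28.9 CPM (log2 fold change 1.00, edgeR adjusted p = 0.00468). For the CRH and NPY systems, then, the peptide fell while 1 receptor rose.

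The other called receptors were Oprm1, Vipr2 and Sstr5. Oprm1, the mu opioid receptor on which enkephalins act, rose, with controls at 21.0 to 35.1 CPM and mutants at 44.5 to 61.3 CPM (log2 fold change 0.96, edgeR adjusted p = 0.00370), and 55.65% of its span, though only 1.19% of its exons, is shared with antisense genes. Vipr2 and Sstr5 rested on few reads, 10 to 37 and 0 to 32 per library. Of the span of Vipr2, 52.35%, though 0% of its exons, is shared with the antisense gene Gm20658. Vipr2, a VIP receptor, had a log2 fold change of 1.33 (adjusted p = 0.0289), and its call was lost without control 3 (1.44) or mutant 6 (1.45), 7 (1.09) or 8 (1.44), and also without controls 1 and 4 (1.06) or control 4 and mutant 8 (1.34). Sstr5, a somatostatin receptor, had a log2 fold change of 2.57 (adjusted p = 0.0190), a call lost without mutant 7 (2.40), mutant 8 (2.48), or control 4 and mutant 8 (2.42). Calls of Crhr2, Npy2r and Oprm1 held in each of the 7 fits without 1 library and in the 9 other alternatives. Sstr2 was listed at 0 in every library. Of its span 100%, though 0% of its exons, is shared with the antisense gene Slc39a11, so this 0 cannot be read as absence of the transcript. Sstr1, Sstr3 and Sstr4 were not called.

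**Figure D4:**
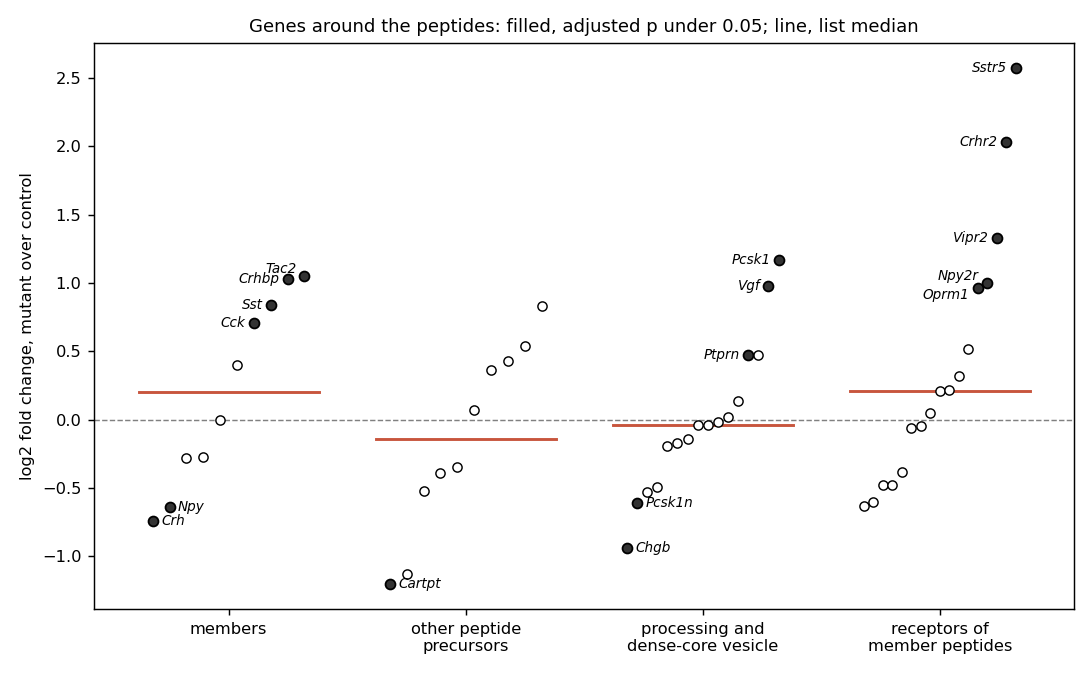
Log2 fold change of mutant over control (vertical axis) of the tested genes of 4 lists, filled and named where the adjusted p was under 0.05, with the list median as a red line. Called members and processing genes lie on both sides of 0, the 5 receptors called in this fit lie above it, and Cartpt is the only call among the other precursors.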

How the data were processed

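The authors deposited 8 tables of raw counts of reads per gene, whole numbers without normalization, 1 per library of nuclear RNA from sorted nuclei. Per the submitters' processing notes, Bowtie2 2.5.3 and the builds mm10 and GRCm38 were used. The counting program and its strand setting are not given in the sources used here. Whether reads were counted over exons or whole gene spans was not tested. Per the labels' protocols, cDNA was amplified by PCR without a stated molecular identifier, so errors from counting understate errors between molecules. All 55450 identifiers of 7 tables matched GENCODE M21 (GRCm38), the source of symbols and coordinates. The table labelled mutant 10 repeated mutant 7 and was left out. Library numbers in the labels and in the table names differ for some samples, and each table was taken for the sample it was deposited under. The design's 4 mutants thus became 3. Total counts were 10747169 to 13804734, and 1 CPM is about 10.7 reads at the lowest.

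In R 4.3.3, edgeR 4.0.16 was run with filterByExpr (least count 10, least total 15), TMM, a robust quasi-likelihood fit with the group as the only term, and Benjamini-Hochberg adjustment over 16448 genes, two-sided. An adjusted p under 0.05 was a call. The SE is the log2 fold change divided by the square root of F, and 95% intervals use the moderated degrees of freedom. The fit was tested on simulated data. Alternatives used DESeq2 1.42.0, limma 3.58.1, other scaling, filters and libraries, and a length offset (lowess, span 0.3). Ratios within a library were tested by exact permutation of libraries.

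Named genes are the members, called genes of 3 lists (other precursors, peptide processing, receptors) and, for each called member, the 3 genes of at least 5 CPM most like it. Markers of interneuron classes and other cells came from further lists. Members, lists and rules were chosen with earlier results of these data known.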

Additional observations from a re-analysis of the deposited data

Results flagged for a closer look

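In 4 controls, a library whose gap to its nearest neighbour exceeded Dixon's critical share of the range was looked for in 42 values, of which chance flags about 1 in 20. It was found for 1 of them: the control 1 value of Pcsk1n, 137.5 CPM, stood apart from 101.7 to 103.5 CPM in the other controls, a gap of 0.949 of the range. Without control 1 its log2 fold change was -0.49 and kept its call (edgeR adjusted p = 0.00799).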

How the results depend on the processing

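Of 160 values of the members' log2 fold changes under 16 alternatives each, 137 kept direction and call, 14 lost the call, 1 gained it (Penk) and 8 changed sign, all of Tac1. Tac1 was at -0.16 to 0.13 in fits without 1 library, 0.01 with library totals, 0.01 with the 5 CPM filter and 0.03 with the length offset. Members called numbered 3 to 6 in fits without 1 library. Over all genes, calls numbered 1549, ranged from 734 (without mutant 7) to 2347 (without control 4) in those fits, and were 3147 with limma-voom and quality weights, 2753 with the length offset and 2778 without controls 1 and 4. None of the shared calls changed sign. The difference in log2 ratio stayed positive in every alternative run. Without 1 library, it was 0.97 to 1.21 for Sst to Vip and 1.24 to 1.44 for Tac2 to Vip. Without controls 1 and 4 these were 0.92 and 1.21, and without control 4 and mutant 8 they were 1.00 and 1.22, in designs where an exact permutation p under 0.05 cannot occur. The cause of the other shifts was not tested. No paired analysis was possible because the groups share no replicate numbers. With 3 mutants, changes smaller than the printed intervals were not detectable.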

Other observations

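For each called member, the genes of at least 5 CPM whose log2 CPM followed it most closely over the 7 libraries were sought among 11796 genes. The correlations are descriptions, since the libraries share the group difference and their depth. Closest to Sst were Gprin1 (Pearson r 0.995), Sccpdh (0.995) and Ddx39b (0.991). Closest to Npy were Clstn1 (0.997), Hccs (0.997), of whose span 77.3% is shared with other genes, and the processed pseudogene Gm6123 (0.996). Closest to Crhbp were Triqk (0.992), Eogt (0.990) and Fank1 (0.990), and to Tac2 they were Med24 (0.995), Myo1c (0.994) and Sh3glb2 (0.992). Cck was followed by Smpd2 (0.989), Lrsam1 (0.988) and Ap1m1 (0.986), and Crh by Napa (0.993), Tardbp (0.981) and Polr3c (0.980). None of these 18 genes is a neuropeptide precursor, and 10 of them were called, where 9.42% of all tested genes were. They were picked for following called members in these same libraries, so many calls among them follow from that choice. The 10 were Gprin1 (log2 fold change 0.70), Sccpdh (0.56), Hccs (-0.96), Gm6123 (-0.91), Smpd2 (0.93), Med24 (0.49), Myo1c (0.58), Triqk (0.82), Eogt (0.42) and Fank1 (1.16).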
